A study of Mus musculus with 24 samples.

Results

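TEAD binding in livers with both a Myc and a YAP transgene (tet-Myc/YAP) was set against TEAD binding in livers with the Myc transgene alone (tet-Myc), to ask where the addition of YAP changed the list of TEAD sites. The sites were the 52392 TEAD peaks of tet-Myc/YAP and the 44220 TEAD peaks of tet-Myc, 96612 of the 665214 peaks and regions in the 23 lists analysed from the series. A tet-Myc/YAP peak was called kept where it overlapped a tet-Myc peak by at least 1 bp and gained where it did not. A tet-Myc peak was likewise called kept where it overlapped a tet-Myc/YAP peak and lost where it did not.

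The tet-Myc/YAP livers came from R26-rtTA;tet-Myc;tet-YAP mice and the tet-Myc livers from R26-rtTA;tet-Myc mice, so both carried the Myc transgene and the reverse tetracycline transactivator. Both were fed doxycycline, which switches the transgenes on, for 2 days. The YAP transgene encodes an activated mutant of YAP. R26-rtTA is expressed from the broadly active Rosa26 locus, and chromatin was made from whole liver, so wider or stronger binding in the cells and binding in more of the cells cannot be told apart. For comparison, livers of R26-rtTA mice with only the YAP transgene (tet-YAP) and with neither transgene (wild-type) are used below. The sources used here state neither the ages of the mice nor whether several livers went into a library.

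TEAD proteins are DNA-binding transcription factors, and YAP, a coactivator restrained by the Hippo pathway, has no DNA-binding domain and reaches chromatin mainly through them. Myc recognises E-boxes, which are frequent at active promoters. H3K4me3 marks promoters, H3K4me1 marks enhancers and the flanks of promoters, and H3K27ac marks active promoters and enhancers.

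Chromatin immunoprecipitation with sequencing (ChIP-seq) gave 1 library for each antibody and genotype, so no value below has a replicate error and no difference between genotypes could be tested. The TEAD libraries were close in depth, with 32.6 M ChIP tags in tet-Myc/YAP against 31.6 M in tet-Myc. Each had a control of about the same number of tags, and the fragment sizes estimated by the peak caller were 287 bp in tet-Myc/YAP and 295 bp in tet-Myc. The YAP list of tet-Myc/YAP (11719 peaks) rested on 17.4 M ChIP tags against a control of 167.0 M, the Myc list of tet-Myc/YAP on 16.9 M tags and the Myc list of tet-Myc on 20.7 M. Fixation differed, with the protein crosslinker DSG added to formaldehyde for YAP chromatin only. Myc peaks numbered 30327 in tet-Myc/YAP and 32592 in tet-Myc, against 4775 in wild-type. The wild-type Myc list had an estimated fragment size of 51 bp, equal to its tag length, and a median peak width of 81 bp. Fragment sizes were 359 bp in tet-Myc/YAP and 330 bp in tet-Myc, and median widths 749 bp and 670 bp. The wild-type count is therefore not on the same footing. Intervals in brackets are Wilson 95% intervals of a share, and those of differences between shares are Newcombe 95% intervals. Both cover the counting of peaks only, and neighbouring peaks are not independent. Fold enrichment over the control and −log10 q, where q is the caller's p-value after correction, are the authors' values for each peak.

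More TEAD sites were gained than lost between the 2 lists, which goes with the greater length of the tet-Myc/YAP list (52392 against 44220 peaks). Gained sites numbered 15346, or 29.3% (28.9 to 29.7) of the tet-Myc/YAP list, and lost sites 6002, or 13.6% (13.3 to 13.9) of the tet-Myc list. Most TEAD sites were thus called in both genotypes, with 37046 kept peaks (70.7%) in the tet-Myc/YAP list and 38218 (86.4%) in the tet-Myc list. With both lists held to −log10 q of at least 10, 13929 peaks were gained and 4648 lost. With each list limited to its 30000 peaks of highest −log10 q, which brings the 2 counts close by construction, 7140 were gained and 6590 lost. Of the peaks with −log10 q of at least 10, 9164 had no partner in the whole tet-Myc list and 2972 none in the whole tet-Myc/YAP list. The kept counts differ because 1582 tet-Myc/YAP peaks each covered 2 or more tet-Myc peaks, and 476 tet-Myc peaks each covered 2 or more tet-Myc/YAP peaks.

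Gained and lost sites were narrow and weak beside the kept ones. In the tet-Myc/YAP list the median width was 400 bp for gained and 664 bp for kept peaks, the median fold enrichment 5.79 and 9.38, and the median −log10 q 11.4 and 29.3. In the tet-Myc list the median width was 373 bp for lost and 554 bp for kept peaks, the median fold enrichment 5.50 and 7.43, and the median −log10 q 9.98 and 18.9. The share of peaks without a partner therefore fell steeply with strength. In the weakest decile of the tet-Myc/YAP list by −log10 q, 67.2% of peaks were gained, and in the strongest decile 1.37% were. In the tet-Myc list 34.2% of the weakest decile and 1 of the 4422 peaks of the strongest decile were lost.

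**Figure D1:**
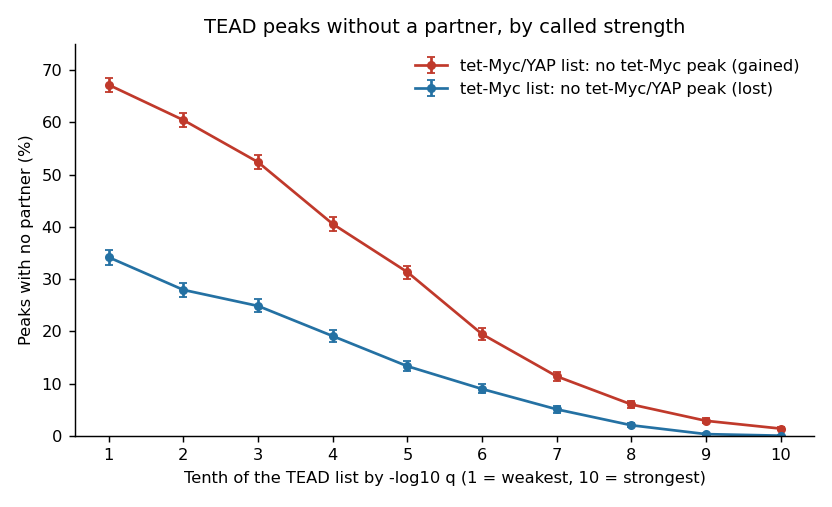
Share of TEAD peaks with no overlapping peak in the other genotype (vertical axis, percent) in deciles of each list ranked by −log10 q (horizontal axis), for gained peaks of the tet-Myc/YAP list and lost peaks of the tet-Myc list, with Wilson 95% intervals as bars. The share of gained peaks was 67.2% in the weakest and 1.37% in the strongest decile.

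The strong ends of the classes differed. At −log10 q of at least 50 there were 273 gained and 2 lost peaks, and at 100 or more there were 65 gained peaks and no lost one, the strongest lost peak being at 64.25. Of the whole lists, 9.60% of tet-Myc/YAP peaks and 4.68% of tet-Myc peaks reached 100, so the same cutoff is a stricter one in the tet-Myc list. By rank, 72 gained peaks fell in the strongest decile of the tet-Myc/YAP list and 1 lost peak in that of the tet-Myc list.

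Most gained sites did not lie directly beside a tet-Myc site. The median distance of a gained peak to the nearest tet-Myc TEAD peak was 4247 bp, with 1790 (11.7%) within 500 bp and 8190 (53.4%) within 5000 bp. The median distance of a lost peak to the nearest tet-Myc/YAP TEAD peak was 8701.5 bp. At the boundary of the classes, the 66 gained peaks that missed a tet-Myc peak by 50 bp or less had a median fold enrichment of 4.86 and a median −log10 q of 8.41, and the 61 peaks kept by 50 bp of overlap or less had 4.79 and 8.12.

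Over the autosomes the gained share ranged between 27.2% and 30.8% of a chromosome's tet-Myc/YAP peaks, and on the X chromosome it was 36.6% (33.4 to 40.0, 296 of 808 peaks). The lost share ranged between 10.5% and 16.2% over the autosomes and was 12.0% (9.64 to 14.8, 72 of 600) on the X chromosome. The X chromosome thus stood above every autosome for gained sites and inside their range for lost sites. The sex of the mice was not among the sample details used here.

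Sites were then placed by the chromatin of wild-type liver, which carries neither transgene. A site on a wild-type H3K4me3 region was called promoter-like, a site on wild-type H3K4me1 or H3K27ac without H3K4me3 was called distal, and the remainder had no wild-type mark. Lost sites were the class that lay most often outside marked chromatin. No wild-type mark was found at 42.0% (40.7 to 43.2) of lost and 13.3% (12.9 to 13.6) of kept tet-Myc peaks, where 17.2% of the whole list had none, and at 21.2% (20.6 to 21.9) of gained and 13.7% (13.3 to 14.0) of kept tet-Myc/YAP peaks, where 15.9% of the whole list had none. Promoter-like sites made up 39.3% of gained and 49.8% of kept peaks, against 46.7% of the whole tet-Myc/YAP list. They made up 21.4% of lost and 50.7% of kept peaks, against 46.7% of the whole tet-Myc list. The distal share hardly varied, at 39.5% of gained, 36.6% of lost, and 36.6% and 36.1% of kept peaks in the tet-Myc/YAP and tet-Myc lists.

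**Figure D2:**
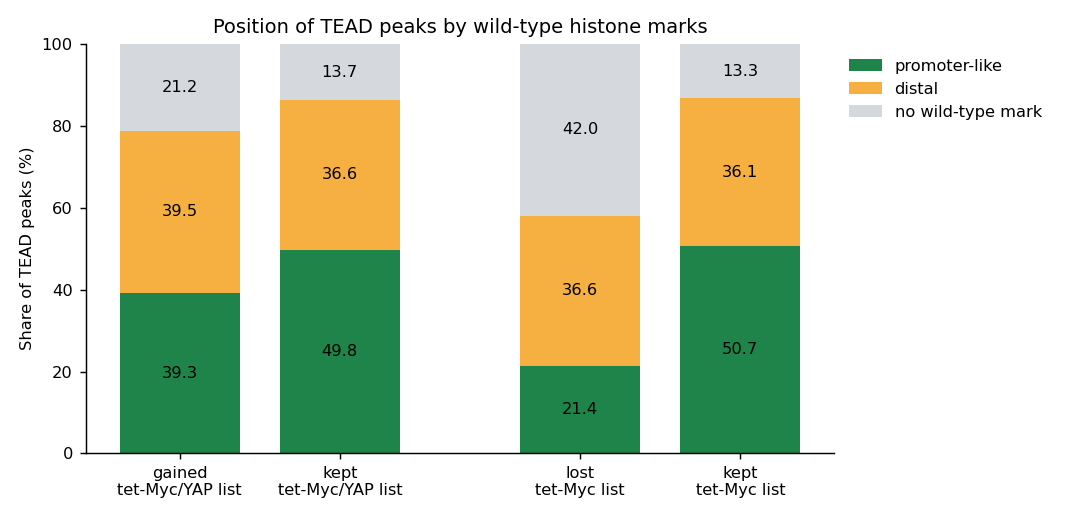
Share of TEAD peaks (vertical axis, percent) that were promoter-like, distal or without a wild-type mark, for gained and kept peaks of the tet-Myc/YAP list and lost and kept peaks of the tet-Myc list (bars, 1 library each). No wild-type mark was found at 42.0% of lost and 21.2% of gained peaks, against 13.3% and 13.7% of the kept peaks of their lists.

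Read the other way, promoter-like TEAD sites were, over all strengths, the ones most often called in both genotypes. Of the promoter-like tet-Myc/YAP peaks 24.6% (24.1 to 25.2) were gained, of the distal ones 30.9% (30.3 to 31.6) and of those without a mark 39.1% (38.1 to 40.2). The order was the same and steeper for loss, at 6.23% (5.91 to 6.57) of promoter-like, 13.7% (13.2 to 14.3) of distal and 33.2% (32.1 to 34.2) of unmarked tet-Myc peaks.

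YAP in tet-Myc/YAP livers sat mainly on TEAD sites that were there with Myc alone. Of the 11719 YAP peaks, 86.9% (86.3 to 87.5) lay on a kept TEAD peak, 7.36% (6.91 to 7.85) on a gained peak and no kept one, and 5.75% on no tet-Myc/YAP TEAD peak. Seen from TEAD, YAP was present at 6.54% (6.16 to 6.94) of gained and 27.1% (26.7 to 27.6) of kept peaks, where 21.1% of the whole tet-Myc/YAP list had it. The difference of gained minus kept was −20.6 points, and it was −11.6 when YAP peaks below a −log10 q of 10 were left out. A tet-Myc/YAP YAP peak also lay at 2.15% (1.81 to 2.55) of lost and 26.8% (26.4 to 27.3) of kept tet-Myc peaks, where 23.5% of that list had one, a difference of −24.7 points (−25.3 to −24.1) that was −13.0 without those weak YAP peaks. Where YAP was present, its summit was a median of 178 bp from the TEAD summit at gained and 155 bp at kept peaks.

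The lower share of YAP at gained sites held at each position. At promoter-like sites YAP was present at 14.1% of gained and 42.4% of kept peaks, at distal sites at 2.41% and 15.7%, and at unmarked sites at 0.184% (6 of 3259) and 2.31%. It also held among peaks of like width and like strength. Among peaks narrower than 400 bp 3.62% of gained and 5.69% of kept peaks had YAP, and among peaks of 800 bp or more 26.9% and 52.9%. At −log10 q below 10 the shares were 5.68% of gained and 9.67% of kept peaks, and at 50 to 100 they were 1.44% and 36.4%. The gap was thus small among weak and narrow sites and large among strong and wide ones.

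Myc followed another course. It was present in tet-Myc/YAP at 33.5% (32.8 to 34.3) of gained and 57.1% (56.6 to 57.6) of kept peaks, where 50.2% of the whole list had it, a difference of −23.6 points (−24.5 to −22.7) that was −14.1 with the lists of 30000 peaks. Among peaks narrower than 400 bp, however, 24.6% of gained and 21.6% of kept peaks had Myc, and among those of 400 to 600 bp 36.1% and 34.6%. At 600 to 800 bp the shares were 56.7% of gained and 60.5% of kept peaks, and at 800 bp or more 70.0% and 85.5%. By strength, the shares of gained and kept peaks were 33.6% and 33.3% at −log10 q below 10, 33.4% and 43.0% at 10 to 20, 36.7% and 55.5% at 20 to 30, 31.4% and 62.6% at 30 to 50, 24.0% and 68.9% at 50 to 100, and 18.5% and 77.7% at 100 or more. Gained and kept sites were thus close in Myc below 600 bp and at −log10 q below 10, and from 10 upwards the share was lower at gained sites in every class. At gained sites Myc was called at 33.5% in tet-Myc/YAP livers and at 32.9% in tet-Myc livers, and 4178 gained sites had a Myc peak in both, 964 in tet-Myc/YAP only and 869 in tet-Myc only.

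Over all positions, lost sites had little Myc at any width. A tet-Myc/YAP Myc peak lay at 10.5% (9.79 to 11.3) of lost and 57.2% (56.7 to 57.7) of kept tet-Myc peaks, where 50.9% of that list had one. Among peaks narrower than 400 bp it was 10.1% of lost and 41.3% of kept peaks, and over the 4 width classes the share of lost peaks ranged between 10.1% and 15.0%. The share differed by position, at 35.1% of promoter-like, 7.29% of distal and 0.873% of unmarked lost peaks. At kept tet-Myc peaks of these positions it was 78.7%, 44.8% and 9.18%. Myc was called in tet-Myc/YAP only at 107 lost sites (1.78%), against 6.01% of kept tet-Myc peaks, and in tet-Myc only at 352 lost sites (5.86%), against 6.36% of kept peaks.

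Taking YAP and Myc together, 913 gained peaks carried both, 91 YAP only, 4229 Myc only and 10113 neither, so 65.9% of gained sites had neither factor, against 41.01% of kept sites. Among lost sites 86 carried both, 43 YAP only, 547 Myc only and 5326 neither (88.7%), against 40.8% of the kept peaks of the tet-Myc list. Gained sites with both factors were mostly promoter-like (88.0%), and 99.7% of them lay in tet-Myc/YAP H3K27ac. Gained sites with neither factor were promoter-like in 23.8% and lay in H3K27ac in 58.3%.

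H3K27ac covered 70.8% (70.1 to 71.5) of gained and 79.0% (78.6 to 79.4) of kept peaks in tet-Myc/YAP, where 76.6% of the whole list was covered, a difference of −8.20 points (−9.03 to −7.37) that was −3.27 with the lists of 30000 peaks and −12.0 when peaks within 500 bp counted as kept. The direction depended on width and on strength. Among peaks narrower than 400 bp 63.5% of gained and 54.1% of kept sites were covered, among those of 400 to 600 bp 73.8% and 65.6%, among those of 600 to 800 bp 88.3% and 83.4%, and at 800 bp or more 95.6% and 95.8%. Gained sites below 800 bp were therefore covered more often than kept sites of like width. By strength, 72.8% of gained and 65.3% of kept sites were covered at −log10 q below 10, 68.5% and 70.2% at 10 to 20, 73.5% and 77.8% at 20 to 30, 70.0% and 82.8% at 30 to 50, 70.7% and 86.1% at 50 to 100, and 73.8% and 91.5% at 100 or more. Over all positions, gained sites were therefore covered more often than kept sites of like strength below 10 and less often above it. Within distal and within unmarked sites, gained sites were covered more often in every class, also above 10. At 50 to 100 the shares were 91.2% of gained and 86.2% of kept distal sites, and 44.1% and 24.1% of unmarked ones. At promoter-like sites of that class they were 95.8% and 97.6%. Most of the H3K27ac at gained sites was already called with Myc alone. Gained sites were covered about as often in wild-type (67.7%) and in tet-YAP (69.2%). The tet-Myc regions covered 69.9% of gained and 76.8% of all tet-Myc/YAP TEAD sites, and 10199 of the 15346 gained sites lay in H3K27ac in both genotypes. A further 667 (4.35%) lay in H3K27ac in tet-Myc/YAP only, where 3.46% of the whole tet-Myc/YAP list did so, and 531 (3.46%) in tet-Myc only, where 3.63% did so.

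Lost sites were poor in H3K27ac and were covered less often in tet-Myc/YAP than in tet-Myc. Regions of tet-Myc/YAP covered 41.6% (40.4 to 42.9) of lost and 79.7% (79.2 to 80.1) of kept tet-Myc peaks, where 74.5% of the list was covered, and regions of tet-Myc covered 48.6% of lost sites, where 75.9% of the list was covered. Of the lost sites 110 (1.83%, where 2.86% of the list did so) lay in H3K27ac in tet-Myc/YAP only, and 530 (8.83%, where 4.29% of the list did so) in tet-Myc only. At distal lost sites the share was 57.1% in tet-Myc/YAP and 72.3% in tet-Myc, and at distal kept sites of the tet-Myc list it was 79.7% and 82.9%. The tet-Myc/YAP H3K27ac list as a whole covered less of the genome, 201 Mb against 231 Mb in tet-Myc, and its depth is unknown.

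**Figure D3:**
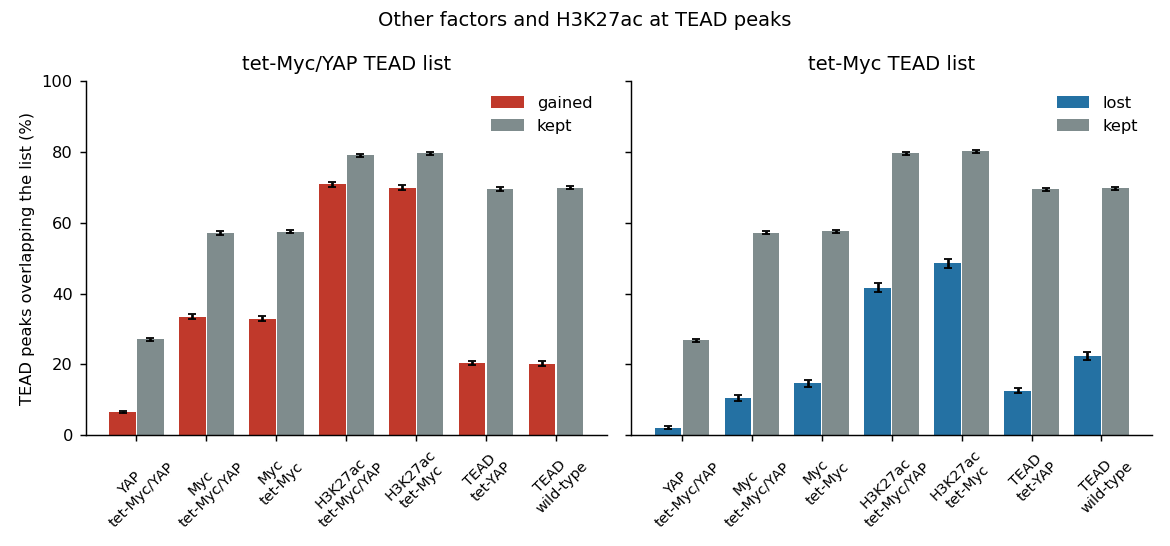
Share of TEAD peaks (vertical axis, percent) that overlapped YAP, Myc and TEAD peaks or H3K27ac regions of the genotypes named below the bars, for gained and kept peaks of the tet-Myc/YAP list (left) and lost and kept peaks of the tet-Myc list (right), with Wilson 95% intervals. YAP was present at 6.54% of gained and 27.1% of kept peaks, and tet-Myc/YAP H3K27ac at 70.8% and 79.0%.

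Among gained sites, H3K27ac differed more between the genotypes at unmarked sites than at distal or promoter-like ones. Of the 3259 gained sites without a wild-type mark, 492 (15.1%, 13.9 to 16.4) lay in H3K27ac in tet-Myc/YAP, against 270 (8.28%, 7.39 to 9.28) in tet-Myc. Of the 2520 unmarked lost sites, 134 (5.32%) did so in tet-Myc/YAP and 190 (7.54%) in tet-Myc. At distal gained sites the shares were 76.4% in tet-Myc/YAP and 78.4% in tet-Myc, and at promoter-like ones 95.4% and 94.7%. Unmarked kept sites went with the gained ones, at 15.1% in tet-Myc/YAP and 10.98% in tet-Myc.

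The TEAD lists of the remaining genotypes, which the classes did not use, showed how far gained and lost sites were called elsewhere. A tet-YAP TEAD peak lay at 20.4% (19.7 to 21.0) of gained and 69.6% (69.1 to 70.0) of kept peaks, where 55.1% of the whole tet-Myc/YAP list had one. A wild-type TEAD peak lay at 20.2% (19.6 to 20.8) of gained and 69.9% (69.4 to 70.4) of kept peaks, where 55.3% had one. So 10529 of the gained sites (68.6%) were called in neither tet-YAP nor wild-type. A tet-YAP TEAD peak lay at 12.6% (11.8 to 13.5) of lost and 69.4% of kept tet-Myc peaks, where 61.7% of that list had one. A wild-type TEAD peak lay at 22.4% (21.3 to 23.4) of lost and 69.7% of kept peaks, where 63.2% had one. Over all positions, gained sites were thus found about equally often in tet-YAP and wild-type, whereas lost sites were found less often in tet-YAP than in wild-type. By position the gained sites were not alike. A tet-YAP TEAD peak lay at 25.1% of promoter-like, 20.1% of distal and 12.1% of unmarked gained sites. A wild-type one lay at 32.6%, 15.5% and 5.80% of them. The tet-YAP list held 32486 TEAD peaks from 32.4 M tags and the wild-type list 33417 from 33.1 M.

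The strong gained sites were unlike the rest of the gained sites. With rising −log10 q, the share of gained peaks without a wild-type mark was 17.4% below 10, 22.2% at 10 to 20, 23.4% at 20 to 30, 30.6% at 30 to 50, 44.7% at 50 to 100 and 72.3% (60.4 to 81.7) at 100 or more. Kept peaks took the opposite course, with 20.5% of them unmarked below 10 and 9.59% at 100 or more. The share of gained peaks with a TEAD peak in tet-YAP was 13.7% in the lowest and 84.6% (73.9 to 91.4) in the highest class, and among kept peaks it was 33.1% and 98.8%. Strong gained sites were therefore mostly outside the chromatin marked in wild-type liver, and mostly bound by TEAD in the other genotype with a YAP transgene.

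The 65 gained peaks at −log10 q of 100 or more were 555 to 1244 bp wide, with a median of 745 bp, and their fold enrichment was 19.5 to 90.6, with a median of 25.95. They lay on 17 chromosomes, at most 6 on any of them. Their median distance to a tet-Myc TEAD peak was 12.9 kb and the smallest 583 bp, so none came from a near miss of the overlap rule. A tet-YAP TEAD peak lay at 55 of them and a wild-type one at 5 (7.69%, 3.33 to 16.8), whereas 93.8% of the 4963 kept peaks of that strength had a wild-type one. Only 1 of the 65 was promoter-like.

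These sites lay in H3K27ac more often in tet-Myc/YAP than in tet-Myc and rarely carried a YAP peak. H3K27ac was called at 48 of them (73.8%, 62.0 to 83.0) in tet-Myc/YAP and at 16 (24.6%, 15.8 to 36.3) in tet-Myc, with 28 in tet-YAP and 16 in wild-type. In all, 32 of the 65 (49.2%) lay in H3K27ac in tet-Myc/YAP and not in tet-Myc, a pattern found at 3.46% of the whole tet-Myc/YAP list, and 10 of the 32 also lay in tet-YAP H3K27ac. RNA polymerase II was called at 12 of the 65 (18.5%) in tet-Myc/YAP and at 2 (3.08%) in tet-Myc, against 70.8% and 67.7% of kept peaks of that strength and 50.6% and 55.7% of the whole list. Myc was called at 12 (18.5%) in tet-Myc/YAP and at 1 (1.54%) in tet-Myc, against 77.7% and 69.7% of kept peaks of that strength. YAP was called at 3 in tet-Myc/YAP (4.62%, 1.58 to 12.7), against 52.0% (50.6 to 53.4) of kept peaks of that strength.

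Unmarked sites alone gave the same picture for H3K27ac, but not for all the other lists. Of the 47 strong gained sites with no wild-type mark, 31 (66.0%, 51.7 to 77.8) lay in H3K27ac in tet-Myc/YAP, against 3 (6.38%, 2.19 to 17.2) in tet-Myc. Of the 476 kept sites of that strength with no wild-type mark, 223 (46.8%, 42.4 to 51.3) did so in tet-Myc/YAP, against 60 (12.6%, 9.92 to 15.9) in tet-Myc. H3K27ac was thus called more often in tet-Myc/YAP than in tet-Myc at strong unmarked TEAD sites of both classes. RNA polymerase II of tet-Myc/YAP lay at 12.8% of these gained and 13.4% of these kept sites, so that contrast was absent here. For tet-Myc/YAP Myc the shares were 14.9% (7.41 to 27.7) and 31.3% (27.3 to 35.6). For tet-Myc/YAP YAP they were 2.13% (0.377 to 11.1) and 12.0% (9.36 to 15.2). Both gaps were smaller than over all positions.

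**Figure D4:**
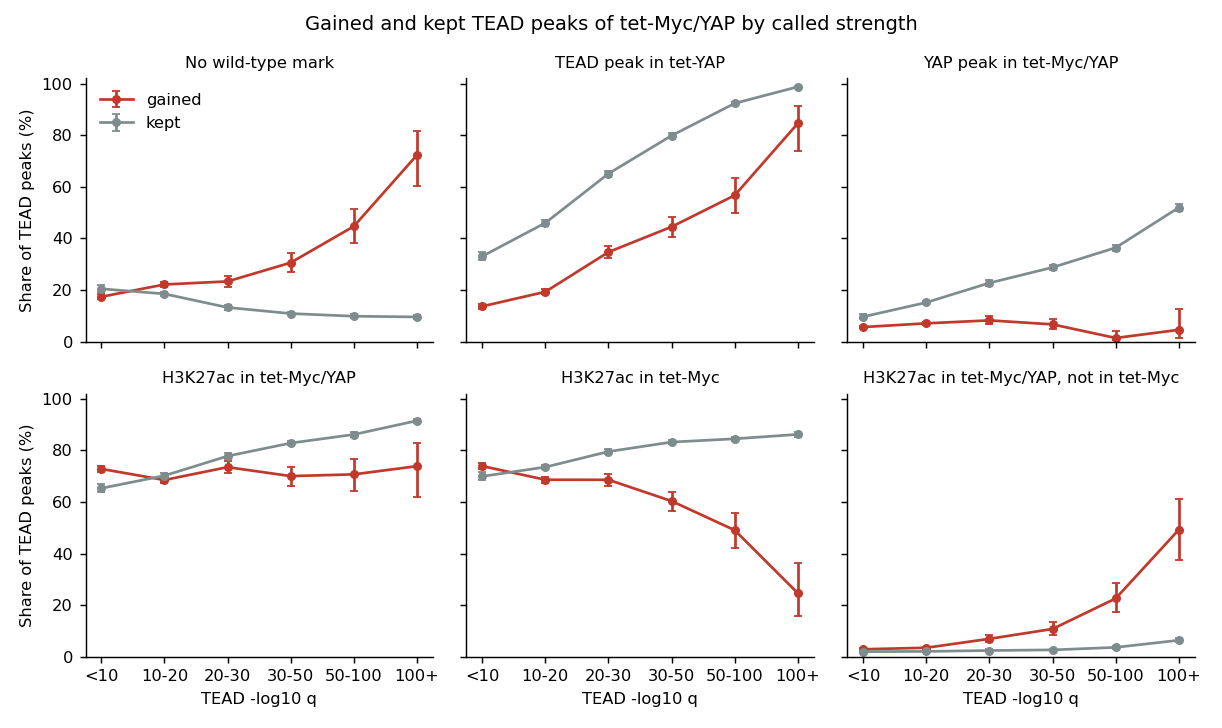
Gained and kept TEAD peaks of tet-Myc/YAP in 6 classes of −log10 q (horizontal axes), with the share (vertical axes, percent) that had no wild-type mark, a TEAD peak in tet-YAP, a YAP peak in tet-Myc/YAP, or H3K27ac in tet-Myc/YAP, in tet-Myc, or in tet-Myc/YAP and not tet-Myc. Bars are Wilson 95% intervals. Of the gained peaks at 100 or more, 72.3% had no wild-type mark and 49.2% had H3K27ac in tet-Myc/YAP and not in tet-Myc.

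Single sites show the range. The strongest gained site, on chromosome 16 from 89346814 to 89347829, had a TEAD fold enrichment of 90.6 in tet-Myc/YAP and of 55.0 in tet-YAP, and no TEAD peak in tet-Myc or wild-type. It carried a YAP peak in tet-Myc/YAP (fold enrichment 5.77) and H3K27ac in tet-Myc/YAP only, with no Myc and no wild-type mark. The next one, on chromosome 16 from 69790547 to 69791489, had TEAD at 76.7 in tet-Myc/YAP and 19.3 in tet-YAP, and the one after it, which spans bases 100043473 to 100044477 of chromosome 1, at 58.9 in tet-Myc/YAP and 16.5 in tet-YAP. Neither had a TEAD peak in the remaining genotypes. Both lay in H3K27ac of tet-Myc/YAP only, and neither had YAP or Myc. The strongest gained site with Myc but no YAP, on chromosome 8 from 82130231 to 82131258, had TEAD at 43.3 in tet-Myc/YAP and 22.2 in tet-YAP, and Myc at 9.55 in tet-Myc/YAP with no Myc peak in tet-Myc. It also had H3K4me3 and RNA polymerase II in tet-Myc/YAP only, and H3K27ac in tet-Myc/YAP and tet-YAP.

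Gained sites inside wild-type chromatin were of several kinds. The strongest promoter-like one, on chromosome 3 from 40889465 to 40890205, had TEAD at 34.8 in tet-Myc/YAP and 12.5 in tet-YAP, and neither Myc nor YAP. It lay in H3K27ac in all 4 genotypes but in H3K4me3 in wild-type only. The strongest distal one, on chromosome 14 from 69421960 to 69423172, had TEAD at 48.7 in tet-Myc/YAP and 29.8 in tet-YAP, YAP at 7.10 in tet-Myc/YAP, and H3K27ac in every genotype but tet-Myc. The 2 strongest gained sites with both YAP and Myc were weaker. One, on chromosome 14 from 70908266 to 70909626, was promoter-like and 1361 bp wide, with H3K4me3, H3K27ac and RNA polymerase II in all 4 genotypes, and had YAP at 7.69 and Myc at 18.5 in tet-Myc/YAP and Myc at 7.68 in tet-Myc. Its TEAD fold enrichment was 11.9 in tet-Myc/YAP and 8.25 in tet-YAP, and wild-type had a peak there too. The other, on chromosome 17 from 28897628 to 28898257, had no wild-type mark, TEAD at 14.8 in tet-Myc/YAP and 7.93 in tet-YAP, YAP at 7.86, and Myc at 10.2 in tet-Myc/YAP and 6.49 in tet-Myc.

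The strongest lost sites were of modest height. The top one, on chromosome 15 from 55140213 to 55140945, was promoter-like, with TEAD at 16.5 in tet-Myc and in no other genotype, although H3K4me3 and H3K27ac were called there in all 4 genotypes. The second, on chromosome 12 from 119219530 to 119219993, had no wild-type mark and TEAD at 14.8 in tet-Myc and 4.90 in wild-type. The third, on chromosome 14 from 51726080 to 51726643, was distal, with TEAD at 12.8 in tet-Myc, weaker peaks in tet-YAP (6.12) and wild-type (7.19), and H3K27ac in tet-YAP and tet-Myc only. None of the 3 had YAP or Myc in tet-Myc/YAP. Only the third had Myc elsewhere, in tet-Myc (6.04) and in tet-YAP, and it had RNA polymerase II in all 4 genotypes.

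Kept sites differed in TEAD enrichment too. The 34632 sites where 1 tet-Myc/YAP peak matched 1 tet-Myc peak had a median fold enrichment of 9.38 in tet-Myc/YAP and 7.57 in tet-Myc and a median width of 650 bp and 550 bp. Their summits were a median of 40 bp apart, and 79.7% lay within 100 bp of each other. The median log2 ratio of tet-Myc/YAP over tet-Myc was 0.31 over all these sites, and the ratios below are to be read against it. At least 2-fold higher in tet-Myc/YAP were 3703 sites (10.7%), and at least 2-fold lower 400 (1.16%). Across sites, which are not independent replicates, log2 fold enrichment in the genotypes gave Pearson's r of 0.73 and fold enrichment Spearman's rho of 0.66.

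The ratio varied more with the presence of a tet-Myc/YAP Myc peak than with that of a YAP peak. Its median was 0.45 where YAP and Myc both lay in tet-Myc/YAP (8173 sites), 0.41 with Myc only (10979), 0.25 with YAP only (672) and 0.14 with neither (14808). Sites without either factor thus lay below the median of 0.31 over all sites, and so did those with YAP only. The quartiles overlapped between all 4 sets, at 0.14 to 0.78 for YAP and Myc and −0.22 to 0.52 for neither. The sets were made with peaks of tet-Myc/YAP, the genotype on top of the ratio, and the Myc list was longer than the YAP list. The median width of the tet-Myc/YAP TEAD peaks was 958 bp with both, 709 bp with Myc only, 739 bp with YAP only and 513 bp with neither. The part of width and of list length in these medians was not tested. At unmarked sites the medians were 0.65 for both (55 sites), 0.53 for Myc only (402), 0.21 for YAP only (62) and 0.05 for neither (4508). With the sites split at the quartiles of tet-Myc fold enrichment, those with both factors had the highest median in every class. It was 0.61, 0.43, 0.44 and 0.40 in order of rising enrichment, against 0.37, 0.12, −0.03 and −0.06 for the sites with neither. The tet-Myc enrichment used for this split is also the lower term of the ratio. A fall from class to class can therefore come from the split itself, and only sets inside a class are compared. At least 2-fold higher were 13.2% of sites with both factors and 7.67% of sites with neither, where 10.7% of all sites were.

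**Figure D5:**
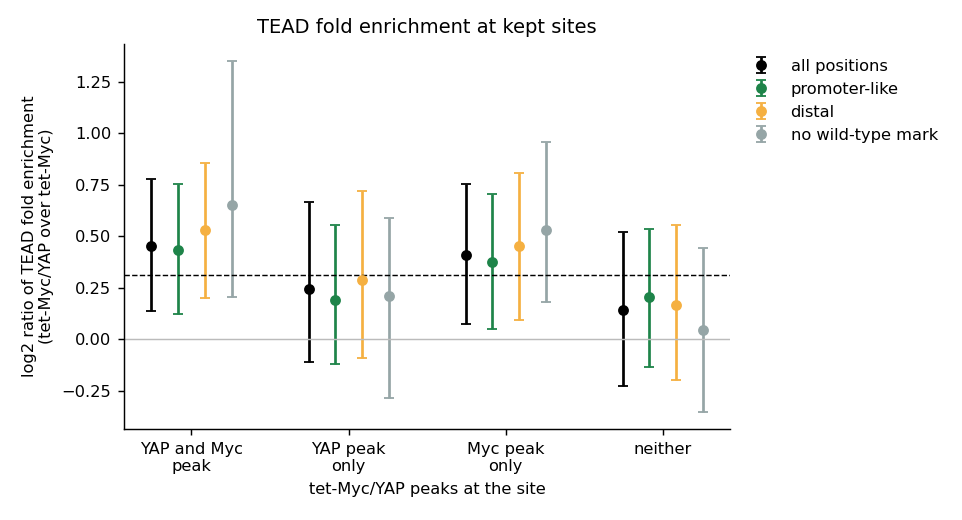
log2 ratio of TEAD fold enrichment, tet-Myc/YAP over tet-Myc (vertical axis), at kept sites with a YAP and Myc peak, a YAP peak only, a Myc peak only or neither in tet-Myc/YAP (horizontal axis), over all positions and by position (colours). Points are medians over sites, bars run between the quartiles of sites and are no error of replicates, and the dashed line is the median of all sites (0.31). The medians over all positions were 0.45 with both factors and 0.14 with neither.

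H3K27ac moved with the ratio as well. The median was 0.53 at the 1125 sites in H3K27ac in tet-Myc/YAP only, 0.38 at the 25819 sites in H3K27ac in both, 0.07 at the 1348 sites in tet-Myc only and 0.07 at the 6340 sites in neither. At least 2-fold higher were 26.8% of the sites in tet-Myc/YAP H3K27ac only and 3.41% of those in tet-Myc H3K27ac only. Sites with a TEAD peak in tet-YAP but not wild-type had a median of 0.39 (3857 sites), and those with one in wild-type but not tet-YAP 0.16 (3890 sites). The median was also 0.39 at the 19943 sites with one in both, and 0.16 at the 6942 sites with one in neither. The higher median was thus not particular to sites without a wild-type TEAD peak.

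The kept sites described here were picked for high −log10 q in tet-Myc/YAP, so their similar heights there follow from the choice. Their TEAD enrichment in tet-Myc varied. The site on chromosome 7 from 78607826 to 78609667, which was distal, had TEAD at 98.0 in tet-Myc/YAP and 10.6 in tet-Myc, with 38.8 in tet-YAP and 7.01 in wild-type, and YAP at 5.03 in tet-Myc/YAP and 16.0 in tet-YAP. The site on chromosome 2 from 50542432 to 50543558, also distal, had TEAD at 97.8 in tet-Myc/YAP and 95.9 in tet-Myc, with 47.8 in tet-YAP and 28.7 in wild-type, and YAP at 9.85 in tet-Myc/YAP and 22.0 in tet-YAP. Of these 2 sites, only the one on chromosome 2 had Myc, at 3.87 in tet-Myc/YAP and 6.50 in tet-Myc. The strongest kept site with Myc and no YAP in tet-Myc/YAP, on chromosome 1 from 135592454 to 135593355, had TEAD at 91.8 in tet-Myc/YAP and 31.2 in tet-Myc and Myc at 12.3 in tet-Myc/YAP with no peak in tet-Myc. The tet-YAP YAP list was short, with 1328 peaks and an estimated fragment size of 56 bp. The fold enrichment values of different antibodies are not on 1 scale, and no gene is named for any site, as no annotation of the mm9 build was used.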

How the data were processed

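Liver ChIP-seq peak lists of 4 genotypes were used, 1 library per antibody and genotype, with groups taken from the sample titles. The submitters' processing notes name BWA 0.6.2, SAMtools and MACS2 2.0.9 and the mm9 build. In the narrow lists, MACS2 was run on single libraries at a p-value cutoff of 1e-05, per the file headers, and kept at most 2 duplicate tags at a position. The deposited narrow lists hold the authors' pileup signal at each summit, a ratio of ChIP over control (fold enrichment), −log10 p and −log10 q. The histone regions were deposited with a score of unstated scale, which was not used, and their depth is unknown.

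Overlaps of at least 1 bp were counted in Python 3.11.15 with pandas 2.3.3 and numpy 2.4.6, tested on simulated data of 2000 peaks (9 of 9 checks passed), and checked with bedtools 2.31.1, which gave the same 37046 and 38218 kept peaks. Intervals came from scipy 1.17.1, and figures from matplotlib 3.10.9. Strength was compared inside a list, except at kept sites matched 1 to 1, where the log2 ratio of fold enrichment was read against its median over all sites. No p-value was made, since peaks are not replicates. The edges of the classes were 10, 20, 30, 50 and 100 for −log10 q and 400, 600 and 800 bp for width.

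Named sites were those of highest −log10 q in each class, over all positions, by position and by YAP and Myc, outside chromosome 18, and some of them are described. The members, classes and lists were chosen with earlier results of these data known. The alternatives were a stricter −log10 q of 10, lists of 30000 peaks, an overlap of 50% of the shorter peak, the summit inside the other peak, and promoter-like by tet-Myc/YAP H3K4me3. Planned gene lists were not run, for want of an mm9 annotation.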

Additional observations from a re-analysis of the deposited data

How the results depend on the processing

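With 1 library per genotype, no replicate could be left out, and all intervals cover counting only. No paired analysis was possible because each genotype had 1 library and no test was made. A site absent from a list may hold signal below the calling cutoff, and reads were not used. The share differences of gained or lost minus kept peaks kept their negative sign under every alternative run, and 48 of the 70 alternative values moved beyond counting error or 1.5 times. The 65 strong gained peaks became 65 to 79 under the overlap and cutoff alternatives. The settings within 500 bp and of strict YAP and Myc peaks were chosen after seeing the data.

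Against the whole list of the other genotype, gained peaks at −log10 q of at least 10 numbered 9164 and lost peaks 2972, and 7140 peaks were gained with lists of 30000 peaks. The differences are in percentage points. For promoter-like sites, gained minus kept was −10.5, and it was −8.31 with both lists at −log10 q of at least 10, −14.8 with such peaks against whole lists, −8.71 with lists of 30000 peaks, −8.52 by summit, −11.8 by tet-Myc/YAP H3K4me3, and −15.0 when peaks within 500 bp counted as kept. Lost minus kept was −29.2, and it was −34.1 against whole lists, −24.0 with 30000 peaks, −26.9 at 50% overlap, −25.9 by summit, −32.4 by tet-Myc/YAP H3K4me3 and −33.2 within 500 bp.

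For YAP, gained minus kept was −20.6, and it was −19.0 with both lists strict, −21.8 against whole lists, −18.7 with 30000 peaks, −19.5 by summit and −11.6 with YAP peaks of −log10 q of at least 10. Lost minus kept was −24.7, and it was −26.6 with both lists strict, −27.5 against whole lists, −26.0 with 30000 peaks, −24.0 at 50% overlap, −23.5 by summit and −13.0 with strict YAP peaks.

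For Myc, gained minus kept was −23.6, and it was −17.9 with both lists strict, −26.0 against whole lists, −14.1 with 30000 peaks, −21.4 by summit, −25.3 within 500 bp and −22.2 with strict Myc peaks. Lost minus kept was −46.7, and it was −50.9 against whole lists, −41.5 with 30000 peaks, −44.6 at 50% overlap, −43.2 by summit, −48.9 within 500 bp and −42.3 with strict Myc peaks.

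For H3K27ac, gained minus kept was −8.20, and it was −5.89 with both lists strict, −10.9 against whole lists, −3.27 with 30000 peaks, −6.83 by summit and −12.0 within 500 bp. Lost minus kept was −38.0, and it was −44.2 against whole lists, −32.5 with 30000 peaks, −35.8 at 50% overlap, −34.5 by summit and −42.2 within 500 bp. The causes of these shifts were not tested.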
